A study of Mus musculus with 12 samples.

Results

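The membrane sector (Fo) and the peripheral stalk of mitochondrial ATP synthase are represented here by 9 nuclear genes, out of 55180 mouse gene records listed in the files. Membership was set by a list of gene names, and no cutoff on a measured value was applied. The list was chosen with earlier results of these data known. The list holds the 3 genes for the c subunit (Atp5g1, Atp5g2 and Atp5g3), 3 peripheral stalk genes (Atp5h, Atp5j and Atp5o) and the genes for the small membrane subunits e, f and g (Atp5k, Atp5j2 and Atp5l). Their mRNA levels were read in 6 RNA-seq libraries, each from 1 numbered mouse (678, 687, 688, 698, 700 and 703).

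The study compared male Larp1 WT mice with male Larp1 cKO mice, which were bred from Nestin-Cre mice and mice with a floxed Larp1 allele. The genotype labels read WT and KO. The methods describe the mice used as heterozygous for Nestin-Cre and do not spell out the alleles of the WT mice. The Nestin promoter is active in the progenitors of neurons and of some glia, so in cKO mice cells of other origin keep Larp1. LARP1 is an RNA-binding protein that binds mRNAs beginning with a 5′ terminal oligopyrimidine (TOP) motif. The mice were C57BL/6J, and the labels give no age. There are 12 labelled cortex samples, 6 per genotype, whose replicate labels come in pairs. The methods name 6 male mice for the cortex libraries, with equal numbers of WT and cKO. The 12 samples may thus be paired samples of the same animals, which the sources used here do not state. Which mouse number belongs to which genotype is not known from these sources. No comparison of genotypes was made for that reason, and each value below is that of a single library, or the range and median of the 6. Because every labelled sample is cortex, the libraries were taken to be cortex, a tissue the files themselves do not name. The methods also describe RNA-seq libraries from synaptosomes, a fraction of cortex enriched for synapses. The label cortex does not separate this fraction from whole tissue. Which of them the 6 libraries hold is therefore not known here.

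ATP synthase makes ATP in the inner mitochondrial membrane. Protons pass through Fo and turn a ring of c subunits, which drives catalysis in the soluble F1 head, and the peripheral stalk holds the head still while the ring turns. Subunits e, f and g sit in the membrane beside the ring and take part in the pairing of ATP synthases that shapes the cristae. Brain tissue depends heavily on this enzyme, as neurons obtain most of their ATP by oxidative phosphorylation.

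The libraries held between 34689262 and 44463362 expected counts, with a median of 40566108, and 15002 genes reached 10 counts in each of them. All 9 members were among them, with counts from 718 (Atp5k) to 3231 (Atp5g3). Cortical markers were present in every library, since the summed level of 5 excitatory neuron genes ran from 866.7 to 1266 TPM (a length-scaled share of all listed RNA) and that of 3 inhibitory neuron genes from 105.8 to 145.7 TPM. Of 3 genes of other tissues, Alb (liver) reached no more than 0.03 TPM and Ins2 (pancreas) no more than 0.07 TPM, while Myh7, a muscle myosin, lay between 5.91 and 10.2 TPM. The summed level of 4 oligodendrocyte markers, all 4 detected, was 597.6, 374.6, 402.1, 564.1, 487.4 and 383.4 TPM in the order of mouse numbers given above, which is kept for every series of 6 values below. Summed markers ran from 158.4 to 196.3 TPM for astrocytes (4 genes), from 50.76 to 75.16 TPM for microglia (4 genes) and from 8.58 to 14.51 TPM for endothelial cells (3 genes). All 4 oligodendrocyte and all 3 endothelial markers spanned at least 1.5 times between libraries on the CPM scale used below. Their part in the spread of the members was not tested. In bulk RNA of this kind, fewer cells of a type and less RNA per cell cannot be told apart.

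The c subunit is encoded by 3 separate genes whose proteins differ in the targeting peptide that is removed on import. In the translated reference the last 78 residues were the same for Atp5g1, Atp5g2 and Atp5g3, while the mRNA bases behind them were not. The first 60 of these coding bases are shown because no other in-frame window of this length held more differences, with capitals at each of the 18 positions where the 3 genes do not all have the same base. They lie in exon 4 of each main transcript on the minus strand of GRCm38, at chr11:96073585-96073644 for Atp5g1, chr15:102665116-102665175 for Atp5g2 and chr2:73909246-73909305 for Atp5g3, and are written 5′ to 3′ along the mRNA.
Atp5g1: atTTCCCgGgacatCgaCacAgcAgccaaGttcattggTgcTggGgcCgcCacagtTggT
Atp5g2: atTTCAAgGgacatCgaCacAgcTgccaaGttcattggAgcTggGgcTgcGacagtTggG
Atp5g3: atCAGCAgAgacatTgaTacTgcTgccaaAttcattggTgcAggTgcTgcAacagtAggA
Over the 234 coding bases of the shared part, Atp5g1 and Atp5g2 were identical at 198 (84.6%), Atp5g1 and Atp5g3 at 184 (78.6%) and Atp5g2 and Atp5g3 at 181 (77.4%). The longest run of bases that any pair of main transcripts had in common was 21 (Atp5g1 and Atp5g2), against a mean fragment length of 153.3 to 165.0 bases in the libraries.

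Of the c-subunit genes, Atp5g3 and Atp5g1 were at similar levels and Atp5g2 was the lowest in every library. Atp5g1 (chr11:96068852-96075670, minus strand, GRCm38) was at 118.1, 110.4, 98.82, 130.9, 108.3 and 129.4 TPM. Atp5g2 (chr15:102662864-102672352, minus strand) was at 65.97, 65.86, 54.1, 56.56, 61.45 and 72.48 TPM, so its highest library stayed below the lowest of Atp5g1. For Atp5g3 (chr2:73908447-73911326, minus strand) the levels were 137.6, 124.4, 97.38, 120.4, 114.8 and 118.0 TPM, a range that contains that of Atp5g1. As a share of their summed TPM, Atp5g1 held 36.7% to 42.5% (median 38.8%), Atp5g2 held 18.4% to 22.7% (median 21.6%) and Atp5g3 held 36.9% to 42.8% (median 39.7%). Atp5g1 was below Atp5g3 in the libraries of mice 678, 687 and 700 and above it in those of 688, 698 and 703, with ratios of 0.858, 0.888, 1.01, 1.09, 0.943 and 1.1. The leading gene thus differed between libraries, while the place of Atp5g2 did not.

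**Figure D1:**
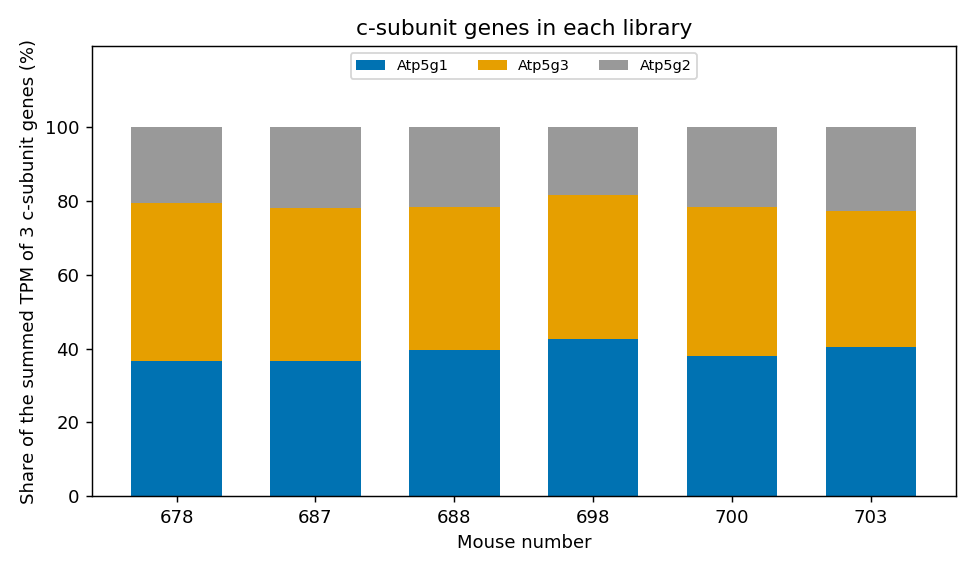
Share of each c-subunit gene in the summed TPM of Atp5g1, Atp5g2 and Atp5g3 (y axis, %) in the library of each mouse (x axis), as stacked bars. Atp5g2 is the smallest share in all 6 libraries, at 18.4% to 22.7%, and the other 2 genes hold similar shares.

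Of the 3 peripheral stalk members, Atp5h was at the highest level and Atp5j at the lowest in every library. Atp5h, which encodes subunit d of the stalk (chr11:115415689-115419962, minus strand), was at 146.3, 135.4, 90.19, 118.3, 128.4 and 114.0 TPM and had the highest median of all members, 123.3 TPM. Atp5o encodes the oligomycin sensitivity-conferring protein (OSCP) that ties the stalk to the top of the F1 head (chr16:91925214-91931687, minus strand), and was at 108.2, 104.2, 79.77, 95.11, 99.59 and 98.33 TPM. In both genes the library of mouse 688 was the lowest and that of mouse 678 the highest. Atp5j encodes coupling factor F6 (chr16:84827866-84835625, minus strand) and was at 87.94, 91.63, 71.08, 64.44, 82.12 and 77.31 TPM. It was the single member whose lowest library was that of mouse 698. A second gene record under the name Atp5o (chr16:91684398-91926982), not used for the values above, was listed at no more than 0.74 TPM in any library.

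The genes for subunits e, f and g were lowest in the library of mouse 688 in each case. Atp5k, for subunit e (chr5:108433244-108434448, minus strand), was at 129.8, 112.3, 83.91, 96.2, 99.67 and 103.5 TPM, with mouse 678 above the rest. Atp5j2, for subunit f (chr5:145183698-145192062, minus strand), was at 93.91, 87.96, 67.04, 91.45, 96.19 and 85.36 TPM. Its other 5 libraries lay close together and only mouse 688 stood apart. Atp5l, for subunit g (chr9:44912557-44920742, minus strand), was at 132.4, 130.2, 93.01, 120.0, 118.2 and 113.4 TPM, again with a gap between mouse 688 and the others.

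By median TPM, a scale that corrects for length, the order was Atp5h (123.3), Atp5g3 (119.2), Atp5l (119.1), Atp5g1 (114.2), Atp5k (101.6), Atp5o (98.96), Atp5j2 (89.7), Atp5j (79.72) and Atp5g2 (63.66), so the first stood 1.94 times above the last. Every neighbouring pair in this order had overlapping ranges. Within single libraries, Atp5k was above Atp5o, Atp5o above Atp5j2 and Atp5j above Atp5g2 in 6 of 6. The other neighbours changed places between libraries, as the one with the higher median led in 3 or 4 of 6. These mRNAs are short, since the main coding transcripts run from 371 (Atp5k) to 838 (Atp5o) bases, and the TPM of such transcripts depends on the fragment length assumed for the library.

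**Figure D2:**
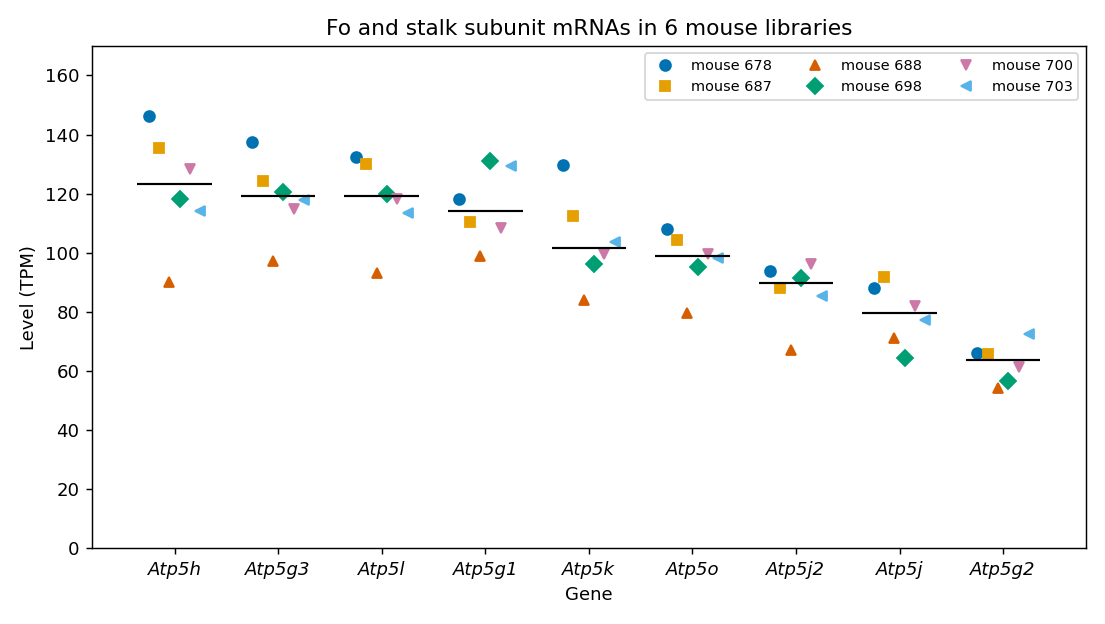
TPM (y axis) of each of the 9 genes (x axis, ordered by median) in the 6 libraries, 1 symbol per mouse, with the median as a black line. The library of mouse 688 is the lowest for every gene except Atp5j, and Atp5g2 lies below the other members with a median of 63.66 TPM.

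Together the 9 mRNAs made up 0.102%, 0.0962%, 0.0735%, 0.0893%, 0.0909% and 0.0912% of TPM, with a median of 0.091%. The highest library was 1.39 times the lowest, and without the library of mouse 688 this ratio was 1.14. The summed TPM of the c-subunit genes spanned 1.28 times between lowest and highest library, that of the stalk genes 1.42 times and that of the genes for e, f and g 1.46 times. RNAs annotated as miscellaneous non-coding held between 36.4% and 47.8% of TPM. On this scale 49.0% of all detected genes were lowest in the library of mouse 700 and 53.0% were highest in that of mouse 703. As a share of the TPM of nuclear protein-coding genes alone, the members' sum was 0.391%, 0.392%, 0.301%, 0.35%, 0.401% and 0.316%, which places mouse 703 next to mouse 688 at the low end.

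To compare libraries on a scale where the typical gene stays level, CPM (counts scaled to a common library total) with the trimmed mean of M values (TMM) as scaling factor were used, and each gene was set against its own median over the 6 libraries on log2(CPM + 1). A median over 6 libraries leaves 3 above it and 3 below. All 9 members were above their own median in the library of mouse 678, where 50.5% of all detected genes were, and all 9 in that of mouse 700, where 51.6% were. In the library of mouse 687, 8 of 9 were above, against 50.9% of all detected genes. None of the 9 was above its median in the library of mouse 688 (49.5% of all detected genes) or of mouse 703 (48.6%), and 1 was in that of mouse 698 (48.9%). The exceptions both belong to Atp5g1, which was 0.03 below its median in mouse 687 and 0.08 above it in mouse 698. The median difference of the members was −0.32 in mouse 688, −0.26 in mouse 703 and −0.11 in mouse 698, and 0.13, 0.09 and 0.14 in mice 678, 687 and 700, on the log2 scale. The median of all detected genes stayed within 0.003 of 0 in every library. Libraries were not grouped by these values, and a genotype was read from none of them.

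**Figure D3:**
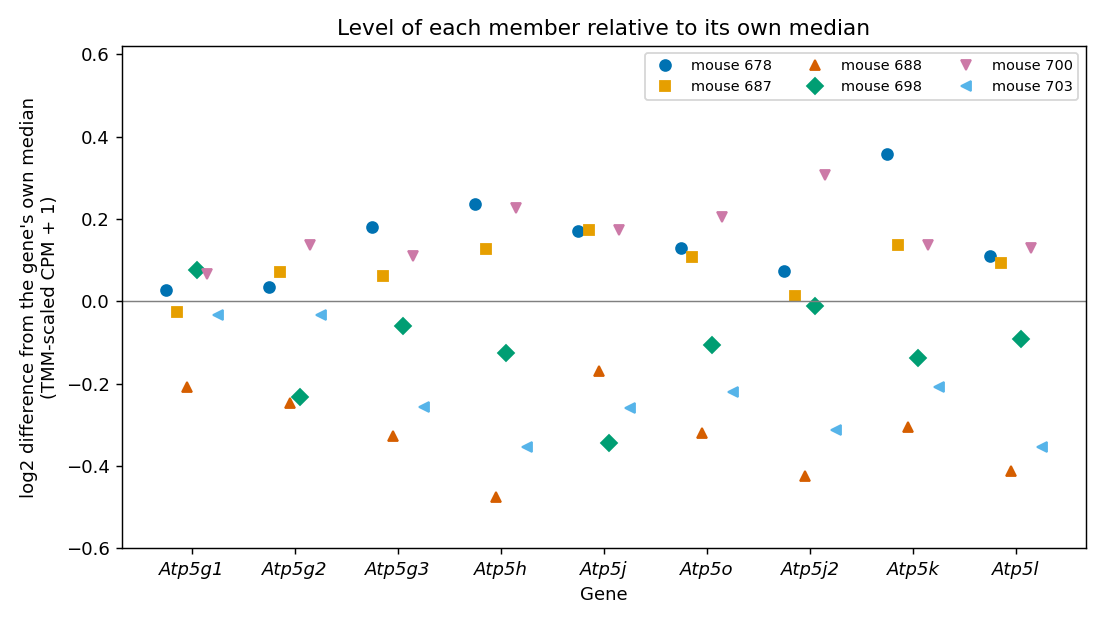
Difference of each gene from its own median over the 6 libraries (y axis, log2 of TMM-scaled CPM + 1) for the 9 genes (x axis), 1 symbol per mouse. The symbols of mice 678 and 700 lie above 0 for all 9 genes and those of mice 688 and 703 lie below 0 for all 9.

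On TMM-scaled CPM, 8 of the 9 members had their lowest value in the library of mouse 688, where 15.3% of all detected genes did. This count was chosen after the values were seen, and it was also 8 with DESeq2 size factors, on TPM and on TPM of nuclear protein-coding genes. It includes Atp5g2, where mouse 688 was barely below mouse 698, at 30.85 against 31.2 CPM. On TPM of nuclear protein-coding genes both libraries of Atp5g2 rounded to 221.7. Atp5h was at 68.96, 63.89, 41.71, 53.43, 68.55 and 45.48 CPM. Its values in mice 688 and 703 were the lowest pair, and mouse 698 came next. Atp5j2 was at 43.03, 41.22, 30.21, 40.52, 50.77 and 32.72 CPM, with mouse 700 highest and the same pair of libraries at the bottom. Atp5j differed from this in having mouse 698 below the pair, at 43.88, 44.0, 34.44, 30.41, 43.98 and 32.29 CPM. Atp5g1 showed the narrowest spread, at 66.93, 64.55, 56.78, 69.34, 68.89 and 64.16 CPM, where mouse 688 was low and the other 5 lay close together.

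On TMM-scaled CPM + 1, the highest library stood above the lowest by a ratio of 1.66 for Atp5j2, 1.64 for Atp5h and 1.58 for Atp5k. These 3 of 9 members reached 1.5, a level reached by 13.2% of the 15002 detected genes. The ratio was 1.45 for Atp5l, 1.44 for Atp5o, 1.43 for Atp5j, 1.42 for Atp5g3, 1.3 for Atp5g2 and 1.22 for Atp5g1. Over the 9 members the median ratio was 1.44, and over all detected genes it was 1.249, a median that includes genes with far fewer counts. Counting error was small beside these ratios, as it came to between 2.08% (Atp5g1) and 3.73% (Atp5k) of the lowest count. The Atp5j2 ratio was 1.41 without mouse 700, and the Atp5k ratio was 1.36 without mouse 678 and 1.48 without mouse 688. On TPM, 2 of 9 members reached 1.5, against 20.8% of detected genes. On TPM of nuclear protein-coding genes, 2 of 9 did, against 25.0%.

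**Figure D4:**
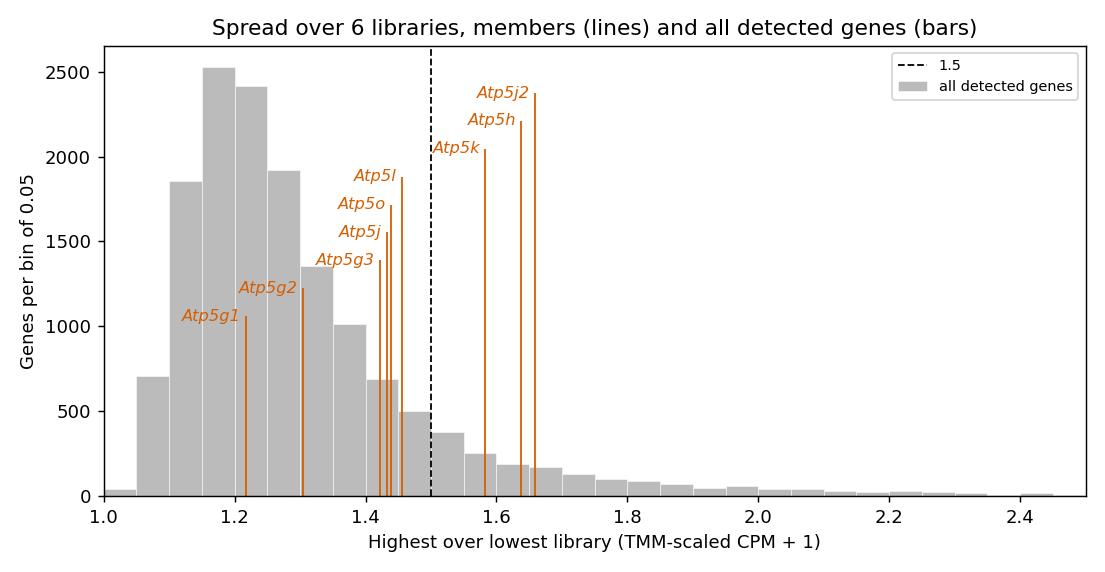
Number of genes (y axis, bins of 0.05) by ratio of highest to lowest library (x axis, TMM-scaled CPM + 1), with a line for each of the 9 genes and a dashed line at 1.5. Atp5k, Atp5h and Atp5j2 lie to the right of 1.5, and 239 detected genes lie past the plotted range, which ends at 2.5.

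Members resembled each other in their pattern across the libraries to different degrees. Likeness was measured as the root mean square difference between the 6 log2 values of 2 genes, each taken from its own median. Among the members, Atp5g3 and Atp5o were closest at 0.053 and Atp5g1 and Atp5h were farthest apart at 0.227. Of 13609 nuclear protein-coding genes searched, the nearest to Atp5h was Atp5e, the epsilon subunit of F1, at 0.045. It was followed by Tomm7, a small subunit of the protein import channel of the outer mitochondrial membrane, at 0.053 and by Chchd10, a protein of the mitochondrial intermembrane space, at 0.054. Atp5e was at 121.8, 119.7, 81.19, 107.3, 116.1 and 99.98 TPM, which like Atp5h put mouse 688 lowest. For Atp5j2 the nearest genes were Smim11, a small membrane protein, at 0.057, and Rnaseh2a and Rnaseh2c, both subunits of ribonuclease H2, at 0.06 and 0.065. These distances are on TMM-scaled CPM. On TPM, Rnaseh2c was at 9.74, 10.45, 8.31, 14.81, 13.5 and 13.89, with mouse 678 low and mouse 703 high, so it did not follow Atp5j2 on that scale. With 6 points, such nearness is a description of these libraries.

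The rest of the enzyme was read from lists of its other genes. Of the 5 F1 genes, all 5 were lowest in the library of mouse 688 on TMM-scaled CPM, and 1 (Atp5e, ratio 1.62) reached 1.5, while the other 4 had ratios from 1.18 (Atp5a1, the alpha subunit) to 1.246 (Atp5d, the delta subunit). The highest level was that of Atp5b, the catalytic beta subunit, with a median of 400.4 TPM and a range of 361.7 to 439.3 TPM. Of the 5 other Fo and stalk genes, 2 were lowest in mouse 688 and 2 reached 1.5. Those 2 were mt-Atp6 and mt-Atp8, which are encoded by mitochondrial DNA and whose lowest library was that of mouse 698, with ratios of 1.96 and 1.52. On TMM-scaled CPM, Atp5f1, for subunit b of the stalk, had a ratio of 1.15 and its lowest value in mouse 698. In this it was like its stalk partner Atp5j and unlike Atp5h and Atp5o. On TPM, the lowest library of Atp5f1 was that of mouse 700 (54.76), with 61.25 in mouse 698. Of the 5 assembly and regulatory genes, 1 was lowest in mouse 688 (Atpif1, the inhibitor of the reverse reaction) and none reached 1.5. The median ratio was 1.24 for the F1 list, 1.38 for the other Fo and stalk genes and 1.26 for the assembly list, against 1.44 for the 9 members.

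Atp5j differed from the other members in its isoforms. Transcript Atp5j-208, annotated as a retained intron, took 49.1%, 58.9%, 53.5%, 52%, 55.5% and 56.8% of Atp5j TPM, and Atp5j-201, the main coding isoform, took 37.5%, 31.3%, 37.4%, 36%, 30.1% and 34.7%. Their ranges did not overlap. In every other member, isoforms annotated as coding held at least 95.2% of TPM. Atp5j-208 spans chr16:84827874-84831607 with 3 exons and 526 bases, of which 426 lie in exons of Atp5j-201 and 100 do not. It begins inside an intron and holds the complete coding sequence of Atp5j-201 without a break. Its first 24 bases, printed to show where it departs from the coding isoform, are given with those of Atp5j-201, and a capital marks a pyrimidine at the first position.
Atp5j-208: Taatttagtgctgtaacctgattc
Atp5j-201: gcggccgcggggggggacaagccc
On the minus strand of chromosome 16, the first is annotated to start at 84831607 and the second at 84835625. As shares of expected counts, which are not divided by length, Atp5j-208 held 36.7% to 46.1% and Atp5j-201 held 42.2% to 50%, so that the order of the pair depended on the unit. Most reads from the part they share cannot be assigned to either by sequence, and the split between them rests on the estimation by the authors' program.

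**Figure D5:**
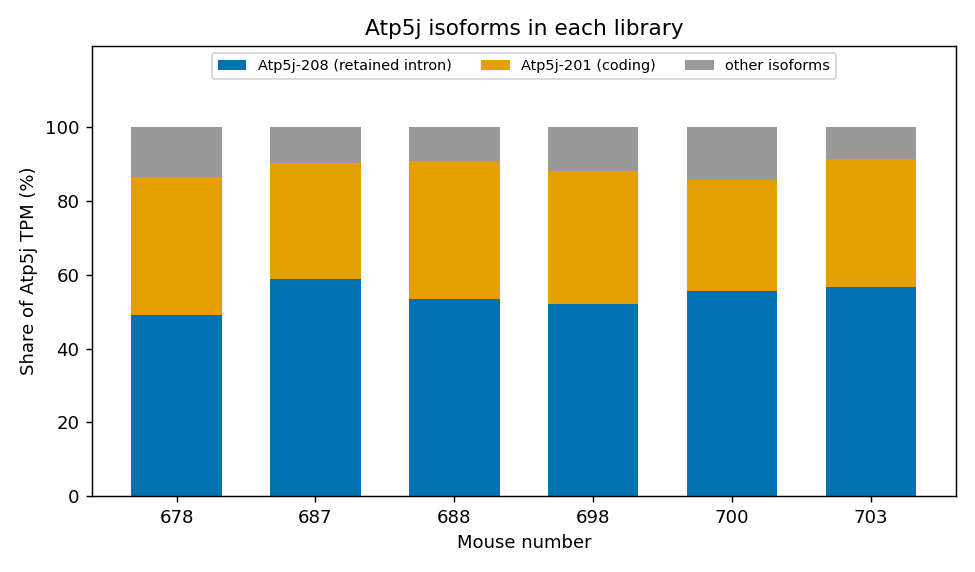
Share of Atp5j TPM (y axis, %) held by Atp5j-208, Atp5j-201 and all other isoforms in the library of each mouse (x axis), as stacked bars. Atp5j-208 holds between 49.1% and 58.9% in the 6 libraries and Atp5j-201 between 30.1% and 37.5%.

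Other members had smaller isoform differences. Atp5g3-201 and Atp5g3-202 took 65.8% to 73.9% and 23.8% to 31.9% of Atp5g3 TPM. Atp5j2-202 took 14.7% to 17.7% of Atp5j2 TPM. The long transcript Atp5g1-201, of 4715 bases, took 2.18% to 3.02% of Atp5g1 TPM but 18.3% to 24% of its counts, because a count is not divided by length.

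The first bases of the members were read because LARP1 binds mRNAs with a TOP motif, taken here as a C at the first base followed by at least 4 pyrimidines. At the GENCODE start of the isoform with the highest median TPM, 0 of 9 members had it, against 2.35% of 13618 detected protein-coding genes. No annotated isoform of any member had it (10.7% of genes had it in some isoform). When the motif could start up to 5 bases after the GENCODE start, 1 member had it, Atp5h, against 10.8% of genes. The first 24 bases of Atp5h are shown because they carry this exception, on the minus strand of GRCm38, with the C and the pyrimidines that follow it in capitals.
Atp5h-201 at the GENCODE start, 115419962 of chromosome 11: gagaaCTTCCggcaactctcttcc
For Atp5g3 and Atp5l the GENCODE and RefSeq starts were the same base, and for Atp5g1, Atp5h, Atp5o, Atp5j2 and Atp5k they differed by 12 to 57 bases, while 1 of the 2 RefSeq starts of Atp5j matched and the other lay 649 bases downstream. The counts above hold for GENCODE starts alone. Annotated starts need not be those used in cortex, and no start-site data were used here, so these counts do not show whether the mRNAs made in cortex begin with the motif.

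Since the members lay on the same side of their medians in most libraries, their RefSeq promoters (GRCm38.p6, 250 bases before the start and 50 from it on) were searched on both strands for short sites of factors known to act on mitochondrial genes. The letters GCATGCGC, the core of the site of nuclear respiratory factor 1 (NRF-1), were found in 3 of 9 members (Atp5g2, Atp5k and Atp5l) and in 3.05% of 27025 genes. These 27025 are all genes with a RefSeq promoter, detected or not, whereas every member was detected. The share among detected genes was not computed for any of these motifs. AAGGTCA, the core of the site of estrogen-related receptors, was found in 3 of 9 members (Atp5g3, Atp5k and Atp5l) and in 5.38% of genes. CCGGAAGT, bound by ETS factors, was found in 1 of 9 (Atp5h) and in 4.31% of genes. That match, read on the other strand, covers the bases capitalised above at the start of Atp5h-201. It begins 39 bases before the RefSeq start, so the same bases were counted in both searches. The 3 windows with the NRF-1 letters are shown because, of the strings searched, this was the longest found in several members. They are written 5′ to 3′ along the gene, with the match in capitals. Other sequence shared between the promoters was not looked for.
Atp5g2, chr15:102671072-102671095: ccggccgcGCATGCGCagagcctt
Atp5k, chr5:108434432-108434455: actgcggcGCATGCGCctttctgg
Atp5l, chr9:44920967-44920990: ccaataacGCATGCGCatttcccc
The matches in Atp5k and Atp5l begin 48 and 240 bases before the RefSeq start. Measured from the GENCODE start of the main transcript, the matches in Atp5k and Atp5g2 lie downstream of it and not before it. In Atp5g2 and Atp5k the letters read on the other strand overlap the same site. A match of letters is a description of the sequence and not evidence of binding, and these motifs were chosen after the values were known.

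Processed pseudogenes and overlapping genes could share reads with several members. By the sequence search, 29 gene records matched the coding sequence of a member at 90% identity or more over at least 80% of its length. Atp5l had 14 of them, Atp5h 5, Atp5g1 4, Atp5g2 and Atp5j2 2 each, Atp5o and Atp5k 1 each, and Atp5g3 and Atp5j none. The copies with the highest median level were Gm10039, a pseudogene identical to Atp5g1 at 99.8% of bases, at 4.84, 3.89, 4.53, 3.92, 3.79 and 4.89 TPM, then Gm10221, a copy of Atp5l, at 3.27 to 6.02 TPM and Gm10175, a copy of Atp5g2, at 2.95 to 4.22 TPM. Summed over its copies, the level was 3.18% to 5.0% of the gene's own for Atp5g1, 4.07% to 6.41% for Atp5g2, 4.0% to 6.1% for Atp5l and no more than 1.23% for the rest. The expected counts of these 3 genes were whole numbers (within 0.05) in 0 of 6 libraries, as happens where reads are divided among transcripts of different genes, while those of Atp5h, Atp5j and Atp5k were whole in 6 of 6. The levels of Atp5g1, Atp5g2 and Atp5l are uncertain for this reason, by an amount that was not measured. The percentages above are themselves a result of that division of reads. On the strand opposite Atp5j, Gabpa overlaps it by 701 bases and was at 3.06 to 4.03 TPM, and the antisense genes that overlap Atp5o and Atp5l were at no more than 0.07 TPM.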

How the data were processed

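RNA-seq libraries of 6 numbered mice were analysed. The study lists 12 labelled samples, whose replicate labels come in pairs. How the 6 libraries correspond to the 12 samples is not known. According to the methods, the authors used cutadapt for trimming, STAR for alignment to mm10 and RSEM for quantification. No source used here gives a version. The methods name UCSC gene annotation, whereas the files list Ensembl transcripts. The labels name TRIzol and a directional kit, and the methods name RNeasy columns and a kit not called directional. The authors deposited an expected count per transcript, not normalized, and the deposited TPM values are scaled over all 142351 transcripts. Effective lengths in the deposited files gave the mean fragment length. The other 12 value columns (FPKM and isoform percent) were not used.

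GENCODE M21 supplied the gene of each transcript identifier (910 had none), and values were summed per gene, with expected counts rounded. Where a name had several records, the one with the higher count was used. The 9 members and all lists were chosen with earlier results of these data known. Counts were scaled by TMM in edgeR 4.0.16 with R 4.3.3, with a pseudocount of 1 and a count minimum of 10. DESeq2 1.42.0 size factors were an alternative. Near-copies were found with blastn 2.17.0, and scripts ran in Python 3.11.15. All 9 members are named, and of other genes those of the enzyme lists, the 3 nearest in pattern to the 2 members of widest spread, and up to 3 near-copies. Sequences come from GENCODE M21 and RefSeq, and all 9 members matched a RefSeq promoter. The search for the TOP motif at RefSeq starts is not reported here. No comparison of groups and no group mean was computed, since no genotype was assigned. The SD over the 6 libraries served as a tolerance when settings were compared. Single far libraries were sought with Dixon's ratio. Intervals of counting error cover counting alone.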

Additional observations from a re-analysis of the deposited data

Results flagged for a closer look

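Of 25 sets of 6 values examined for a library far from the others, 1 stood out. The TPM of Atp5j2 was 67.04 in the library of mouse 688, and the gap to the next library was 0.628 of the whole range. Chance flags about 1 in 20 such groups. On TMM-scaled CPM the gap closed, as mouse 703 (32.72 CPM) lay next to mouse 688 (30.21 CPM).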

How the results depend on the processing

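Of 150 alternative values, 141 were labelled close to the reported one. Close meant a shift smaller than the SD between the 6 libraries or, for a count, a change of at most 1.5 times. Leaving out a library that was neither highest nor lowest cannot change a ratio, so many of the 141 were fixed in advance. The Atp5j2 ratio of 1.66 against 1.41 and the Atp5k ratio of 1.58 against 1.36 were labelled close, although both crossed 1.5. No paired analysis was possible because mouse numbers could not be matched to the replicate numbers of the labels. The median summed level of the 9 mRNAs was 0.0446% when taken as a share of expected counts and 0.371% when only nuclear protein-coding genes made up the TPM total. Its ratio of highest to lowest library was 1.33 to 1.46 in other units and 1.14 to 1.39 when 1 library was left out, with the lowest value without mouse 688. The number of members with a ratio of at least 1.5 was 2 or 3 in other units and without single libraries. It was 8 at a lower threshold that 49.7% of all detected genes reached. On TPM, 2 of the 9 reached 1.5 against 20.8% of detected genes, and on TPM of nuclear protein-coding genes 2 against 25.0%. With a smaller pseudocount it was 3 against 23.6%, and with DESeq2 size factors 3 against 13.1%. Without single libraries, 8.73% to 11.9% of detected genes reached 1.5. The contrast with all detected genes thus depended on the unit. A TOP motif was found in 1 member within 5 bases of the start and in 0 under the other definitions at GENCODE starts, and the motif at RefSeq starts is not reported. For Atp5g1, the ratio was 1.32 on TPM and 1.08 without mouse 688. Shares of c-subunit genes on expected counts differed from those on TPM by less than the spread between libraries. At 80% identity over 50% of the coding sequence, 49 gene records matched a member, against 29. Leaving out 1 library kept the places of 6 to 9 members in the order of levels. The causes of these shifts were not tested. Counting error was at most 3.73% of the lowest count of a member.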
